A study of Homo sapiens with 6 samples.

Results

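The mitochondrial ribosomal protein genes (*MRPL* genes, named for the large subunit of the ribosome, and *MRPS* genes, named for the small subunit) were examined in MRC5 human lung fibroblasts. They were taken by symbol from the deposited table of read counts, as protein-coding genes whose GENCODE symbol is MRPL or MRPS followed by a number and at most 1 letter A, B or C. The symbol was matched by 78 genes, 49 *MRPL* and 29 *MRPS*, and 77 of them had at least 10 counts summed over the 6 libraries and are the members described here, among 19072 genes of any kind that passed the same minimum. MRC5 cells were kept for 24 h in conditioned media (CM) from the alveolar epithelial type II (ATII) line ATIIER:KRASV12, which carries a RAS oncoprotein that 4-hydroxytamoxifen (4-OHT) switches on. In 3 libraries the medium came from ATII cells not given 4-OHT (control CM) and in 3 libraries from ATII cells given 4-OHT (4-OHT CM), and the fibroblasts of both groups were of the same line and were not themselves engineered. The comparison asks whether transcripts of the mitochondrial ribosome differ between fibroblasts in these media. Treatment of the ATII cells with 4-OHT and activation of their RAS go together in this design and cannot be told apart, and all 6 libraries stand for 1 cell line. The labels do not say that the 3 libraries of a group came from separate cultures, so p values measure only the spread between these libraries, which may be technical.

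Mitochondria carry their own ribosomes, which translate the few proteins encoded by the mitochondrial genome, all of them core parts of the respiratory chain and ATP synthase. The rRNAs of these ribosomes are made inside the organelle, whereas every one of their proteins is encoded in the nucleus, made in the cytosol and imported. Some of the proteins have homologues in bacteria, and the others were added during the evolution of mitochondria. Names and places differ for a few: *MRPS18A* and *MRPS30* encode proteins of the large subunit, and the product of *MRPS36* is now placed in the alpha-ketoglutarate dehydrogenase complex rather than in the ribosome.

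Library totals ranged from 17691849 counts, in replicate 2 of control CM, to 26389449, and pairs of libraries of 1 group differed by more than sampling noise (chi-square per degree of freedom 2.04 to 5.56, the 2 highest being the pairs with replicate 2 of control CM). All 9 fibroblast markers examined (*COL1A1*, *VIM* and others) were at or above 10 CPM (read counts scaled to a common library total) in every library, while 8 of 8 epithelial, 2 of 2 leukocyte and 2 of 2 endothelial markers were below 1 CPM in every library. The summed epithelial markers were at 0.794 to 1.41 CPM in control CM and 0.342 to 1.05 CPM in 4-OHT CM, with *KRT5*, *KRT14* and *NKX2-1* at 0.

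The 78 genes lie on 21 chromosomes, with no more than 8 on any one. Their merged exons have a median length of 2539 bases, against 5082 bases for the 13859 protein-coding genes tested. Promoter windows (250 bases before to 50 bases after the transcription start, RefSeq, GRCh38.p14) were found for 69 of the 78 genes and were searched on both strands for short motifs, a window being counted once for a motif. The core of sites for ETS factors, the family of the mitochondrial biogenesis regulator GABP, CCGGAAG, was in 29 of 69 windows (42.0%) against 14.2% of the windows of 15843 protein-coding genes. The YY1 core ATGGCGG was in 24 (34.8% against 7.63%). The core of sites for NRF1 (nuclear respiratory factor 1), GCGCA followed by any base and GCGC, was in 8 (11.6% against 8.58%), the E-box CACGTG bound by MYC in 6 (8.70% against 8.88%), and TATAAA in 2 (2.90% against 9.63%). At least 1 of the ETS, YY1 and NRF1 cores was in 50 windows and none of the 3 was in 19. The windows compared with were not limited to genes tested here. Among tested genes with a window, the ETS core was in 2039 and absent from 9091. The YY1 core was in 1080 and absent from 10050, and the NRF1 core in 1232 and absent from 9898. A match says only that the letters are there.

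The upstream 250 bases of 3 members are shown because these members are among the lowest p values of the comparison between media and because their windows differ: *MRPL20* holds the ETS core and *MRPL41* and *MRPL24* hold none of the 5 motifs. Capitals mark the motif letters, and each sequence reads 5′ to 3′ on the strand of its gene and ends just before the RefSeq start. The *MRPL41* sequence is chr9:137551629-137551878 on the plus strand, that of *MRPL20* is chr1:1407294-1407543 on the minus strand, and that of *MRPL24* is chr1:156741089-156741338 on the minus strand. The gene models of the deposited table place the outer start of *MRPL41* and of *MRPL24* further upstream, so that both of these stretches lie within those models. The model of *MRPL20* reaches to 1407313, so the bases of its stretch nearest the RefSeq start lie within that model too.
MRPL41: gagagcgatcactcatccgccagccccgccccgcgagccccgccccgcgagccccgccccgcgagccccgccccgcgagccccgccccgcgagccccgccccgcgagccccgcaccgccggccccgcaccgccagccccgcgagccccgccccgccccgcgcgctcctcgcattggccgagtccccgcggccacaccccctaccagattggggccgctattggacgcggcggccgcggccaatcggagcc
MRPL20: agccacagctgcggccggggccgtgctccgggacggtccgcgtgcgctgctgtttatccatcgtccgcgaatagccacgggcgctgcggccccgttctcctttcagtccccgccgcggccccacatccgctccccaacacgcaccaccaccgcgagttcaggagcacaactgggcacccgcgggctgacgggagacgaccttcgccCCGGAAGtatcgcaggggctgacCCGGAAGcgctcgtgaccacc
MRPL24: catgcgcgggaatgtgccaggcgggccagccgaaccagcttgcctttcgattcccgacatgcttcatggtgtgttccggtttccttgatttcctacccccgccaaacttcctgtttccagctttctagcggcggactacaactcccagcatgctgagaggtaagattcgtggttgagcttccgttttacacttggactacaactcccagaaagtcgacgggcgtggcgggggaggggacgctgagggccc
The ETS cores of *MRPL20* begin 44 and 21 bases before its start.

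A divergent protein-coding gene starting within 1000 bases was found for 17 of the 78 genes (21.8%), against 8.54% of 20033 protein-coding genes. *MRPL46* and *MRPS11*, one from each subunit, start 63 bases apart on opposite strands. *MRPL36* and *MRPL47* each start 41 bases from a complex I gene, *NDUFS6* and *NDUFB5*, and *MRPL49* starts 6 bases from *FAU*, which encodes a cytosolic ribosomal protein.

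Levels were compared between genes per length, as CPM per kb of merged exon, averaged over the 6 libraries. The members had a median of 10.4 CPM per kb with an interquartile range of 5.77 to 20.1, and 67 of 77 (87.0%) were above 3.96 CPM per kb, the median of protein-coding genes tested. The highest was *MRPL51*, a mitochondria-specific protein of the large subunit, at 64.1 CPM per kb, with 31.3% of its exon bases opposite *NCAPD2*, which had 7919 counts in all. It was followed by *MRPS34*, a mitochondria-specific protein of the small subunit, at 56.4 CPM per kb. *MRPL14* and *MRPL18*, both of the bacterial core, stood at 37.98 and 32.9, and *MRPL41* lay between them at 37.1 CPM per kb. Nearly all these proteins are present in a single copy per ribosome. Their transcript levels spanned 152-fold, from *MRPL51* to *MRPS24*, which encodes a protein at the mRNA entry site of the small subunit, at 0.422 CPM per kb. The order depends on the length used. Per kb of the longest transcript, *MRPL51* was still highest (110.7 CPM per kb) and *MRPS24* lowest (0.639), but *MRPL41* (80.5) stood above *MRPS34* (59.5), and the median of the members was 15.9 CPM per kb. By place in the ribosome and per kb of merged exon, the medians were 12.8 CPM per kb for the 30 large-subunit proteins with bacterial homologues, 12.5 for the 21 mitochondria-specific ones, 9.71 for the 16 small-subunit proteins with bacterial homologues and 5.77 for the 9 mitochondria-specific ones with counts.

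**Figure D1:**
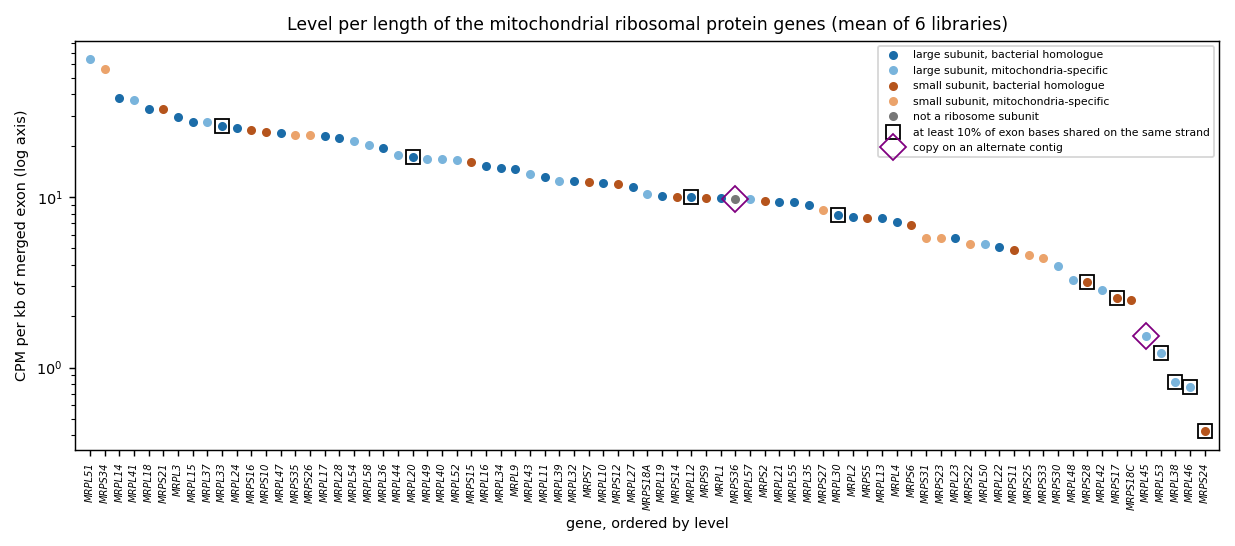
Level of each member in CPM per kb of merged exon (log axis, mean of 6 libraries), ordered from the highest to the lowest and coloured by place in the ribosome. Squares mark members that share at least 10% of their exon bases with another gene on the same strand, and diamonds mark members with a copy on an alternate contig. The 5 lowest members, *MRPL45* to *MRPS24*, all carry one of these marks, but so do higher ones such as *MRPL33*, *MRPL12* and *MRPS36*.

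The low end of that order coincided in part with gene models that share sequence, but some such models stood higher. Of the members, 10 share at least 10% of their exon bases with another gene on the same strand. Their median was 2.87 CPM per kb, against 12.01 for the other 67. Such an overlap of any size was found for 7 of the lowest 10 members but 1 of the highest 10. The 7 include *MRPL42*, which shares only 1.72% and has 16393 bases of merged exon. *MRPS24* shares 23.2% of its exon bases with the readthrough gene *URGCP-MRPS24* and was read 19 to 32 times per library. *MRPL46* (0.770 CPM per kb), *MRPL38* (0.819) and *MRPL53* (1.21), all mitochondria-specific proteins of the large subunit, share 11.3%, 37.5% and 45.2%. *MRPL45* (1.54 CPM per kb), whose product lies at the tunnel exit next to the inner membrane, has a copy on an alternate contig of the assembly and had 44 to 84 counts per library. Other members with overlaps or copies were not low. *MRPL12*, with the largest same-strand share of any member (68.2%), was at 9.96 CPM per kb. *MRPL33* (21.1%) was at 25.95 and *MRPL20*, also among the 10, at 17.1 CPM per kb. *MRPS36*, which also has a copy on an alternate contig, was at 9.75 CPM per kb. How reads matching more than 1 gene or contig were counted is not stated in the sources used here. The part of these overlaps and copies in the levels was not tested.

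*MRPS18B* was the only gene matching the symbol rule that failed the minimum, with 0 counts in all 6 libraries. It encodes a small-subunit protein, at position 30617709 to 30626395 of chromosome 6 (GRCh38), and its transcript aligned to 6 of the 261 alternate contigs searched. Of 11 protein-coding neighbours within 100000 bases, 6 were also at 0, and the highest, *MDC1*, had 56 counts in all. *TUBB*, the gene of a tubulin that dividing cells hold in abundance, had 6. The level of *MRPS18B* therefore cannot be read from these counts. Annotated pseudogenes took few reads: 68 of 79 in the table had no count, and together they had 313, or 0.0932% of the 335818 counts of the members.

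Between the media, the members differed little. They were lower in 4-OHT CM for 58 genes and higher for 19, with a median log2 fold change (4-OHT CM against control CM) of -0.04, or -2.98% on the linear scale, and an interquartile range of -0.09 to -0.0010. Of all 19072 genes, 50.5% were lower and the median was -0.0020. By edgeR's quasi-likelihood test with Benjamini-Hochberg adjustment over all genes, 1 member passed an adjusted p of 0.05 (1.30%), and it was lower in 4-OHT CM, against 5.72% of all genes, 2.95% higher and 2.76% lower. At an unadjusted p of 0.05, 9 members (11.7%) were lower and 0 were higher, against 8.61% and 8.72% of all genes. The 9 became 14 without replicate 1 of control CM (8.01% of all genes lower) and 6 without replicate 2 of control CM (10.1% of all genes lower). DESeq2 gave 6 lower and 0 higher at that level, against 5.99% of all genes lower, and limma-voom 9 and 0, against 8.65% lower. After adjustment DESeq2 called 1 member, lower, against 2.45% of all genes, and limma-voom also called 1, lower, against 2.89%.

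The fold changes were bounded closely. Standard errors of the members had a median of 0.058 on the log2 scale (0.038 to 0.25), against 0.104 for all genes, and the 95% interval of 69 members lay within 0.32 of 0 on the log2 scale in either direction. The 8 others were *MRPL23*, *MRPL12*, *MRPS28*, *MRPS24*, *MRPL53*, *MRPL38*, *MRPL46* and *MRPL45*. The interval was below 0 for 9 members and above 0 for none of the 77.

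**Figure D2:**
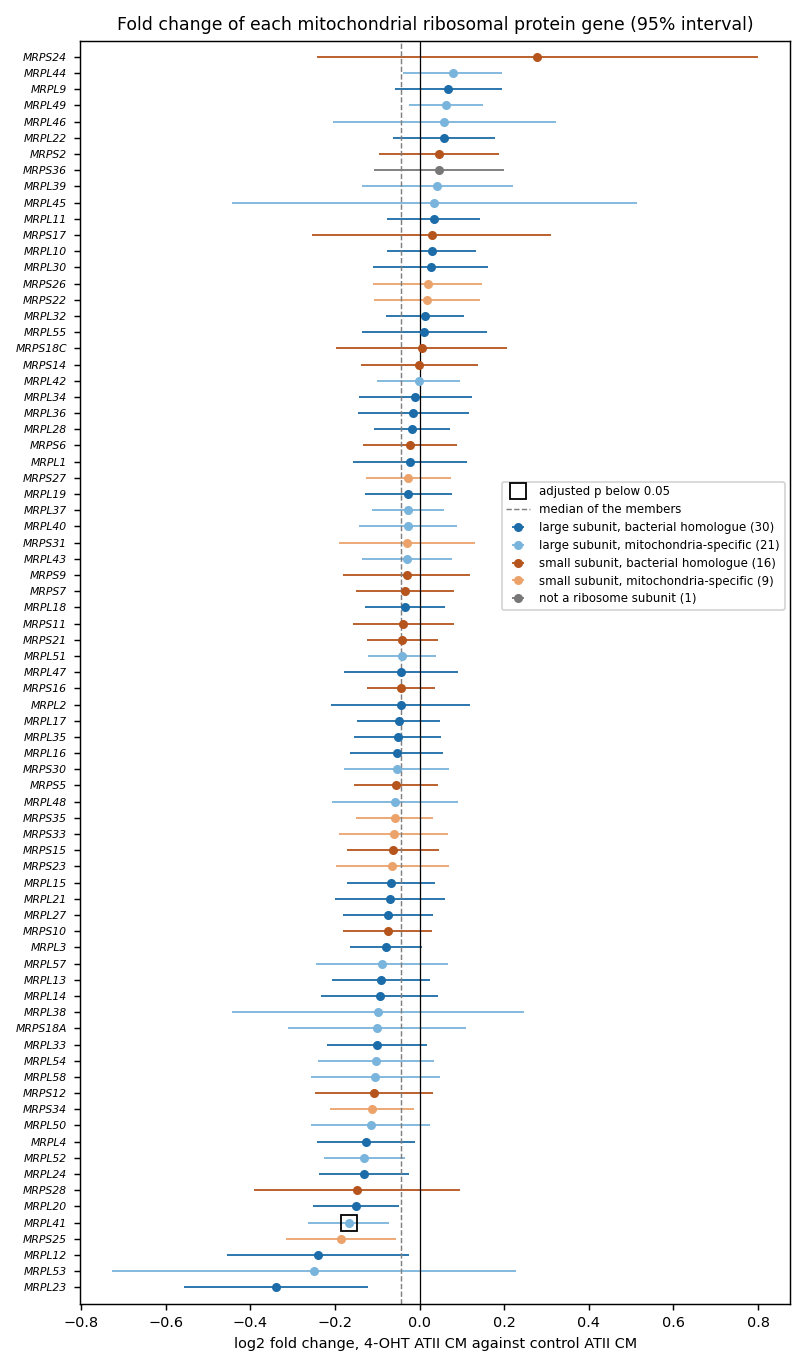
Log2 fold change of each of the 77 members in 4-OHT CM against control CM with its 95% interval (edgeR), ordered by value and coloured by place in the ribosome. The dashed line is the members' median of -0.04, and the box marks *MRPL41*, whose adjusted p was 0.0389; colours of both subunits are spread along the whole order.

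*MRPL41* fell in 4-OHT CM. It encodes a mitochondria-specific protein of the large subunit that has also been described as a binding partner of BCL2 (ENSG00000182154, chromosome 9, 137551199 to 137552555, plus strand). Its levels were 47.2, 51.1 and 50.5 CPM in control CM and 43.4, 45.1 and 43.8 CPM in 4-OHT CM, means of 49.6 ± 2.11 and 44.1 ± 0.877 CPM (SD, n = 3). All 3 libraries in 4-OHT CM were below all 3 in control CM. The log2 fold change was -0.17 (SE 0.045, adjusted p = 0.0389 by edgeR's quasi-likelihood test with Benjamini-Hochberg adjustment). DESeq2 gave the same size with an adjusted p of 0.0815. Without replicate 2 of control CM, the library that stands apart, the fold change was -0.15 with an adjusted p of 0.0622. Of the 6 fits that leave out 1 library, only that without replicate 1 of control CM called it, and the adjusted p ran from 0.0213 to 0.144. In RNA from a whole culture, fewer cells of a kind and less RNA per cell cannot be told apart.

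*MRPL23* had the largest difference in the fit of all 6 libraries, yet its control libraries disagreed. It encodes a protein of the bacterial core at the exit of the peptide tunnel (ENSG00000214026, chromosome 11, 1947278 to 1984522, plus strand). Its levels were 22.9, 16.0 and 18.2 CPM in control CM and 15.6, 14.9 and 14.8 CPM in 4-OHT CM. The groups did not overlap, but replicate 2 of control CM was closer to the 4-OHT CM libraries than to replicate 1. The log2 fold change was -0.34 (SE 0.10, adjusted p = 0.0670 by edgeR). DESeq2 called it, with an adjusted p of 0.0438, and edgeR did so without replicate 2 of control CM, at -0.44 and an adjusted p of 0.00341. Without replicate 1 of control CM, its highest library, the fold change was -0.19 with an adjusted p of 0.293, smaller than those of *MRPL53*, *MRPL12* and *MRPL41* in that fit. Its adjusted p ran from 0.00108 to 0.293 over 14 alternative settings.

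The next members by p did not pass the test. *MRPL20*, whose bacterial homologue binds rRNA early in assembly, was at 47.1, 50.7 and 52.4 CPM in control CM and 45.4, 46.3 and 43.9 CPM in 4-OHT CM, without overlap (log2 fold change -0.15, SE 0.048, adjusted p = 0.0864 by edgeR). It shares 4.99% of its exon bases with the antisense gene *MRPL20-AS1*, which had 2379 counts in all. *MRPS25*, a mitochondria-specific small-subunit gene, was at 27.4, 24.9 and 26.1 CPM and at 22.6, 24.2 and 22.1 CPM, again without overlap (-0.19, SE 0.062, adjusted p = 0.101). It shares 22.2% of its exon bases with *NR2C2* on the opposite strand, and as the strand setting of the counting is not stated, reads of such pairs cannot be told apart. *MRPL20* passed only without replicate 1 of control CM (adjusted p = 0.0317 by edgeR) and *MRPS25* only without replicate 2 of control CM (0.0461). Each of these fits called 2 members, both lower, against 2.11% of all genes lower without replicate 1 and 4.46% without replicate 2 of control CM.

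*MRPL52*, *MRPL24*, *MRPS34*, *MRPL12* and *MRPL4* complete the 9 members with an unadjusted p below 0.05. *MRPL52*, mitochondria-specific, was at 55.4, 57.95 and 51.9 CPM in control CM and 49.9, 50.5 and 50.1 CPM in 4-OHT CM. *MRPL24*, of the rRNA-binding core, was at 41.9, 47.8 and 45.5 CPM and at 41.0, 41.6 and 40.6 CPM. Neither pair of groups overlapped, although the lowest control library of *MRPL24* exceeded the highest 4-OHT CM library by little. *MRPL12*, whose product forms the stalk that recruits translation factors and also binds the mitochondrial RNA polymerase, was at 11.3, 10.4 and 11.6 CPM and at 8.40, 8.98 and 10.8 CPM. Its groups overlapped, since replicate 3 of 4-OHT CM lay within the control range, and 68.2% of its exon bases are shared with another gene on the same strand that has 0 counts. The log2 fold changes were -0.13 for *MRPL52*, -0.13 for *MRPL24*, -0.11 for *MRPS34*, -0.24 for *MRPL12* and -0.13 for *MRPL4*, which lines the peptide tunnel. Their adjusted p values by edgeR ran from 0.116 to 0.235.

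**Figure D3:**
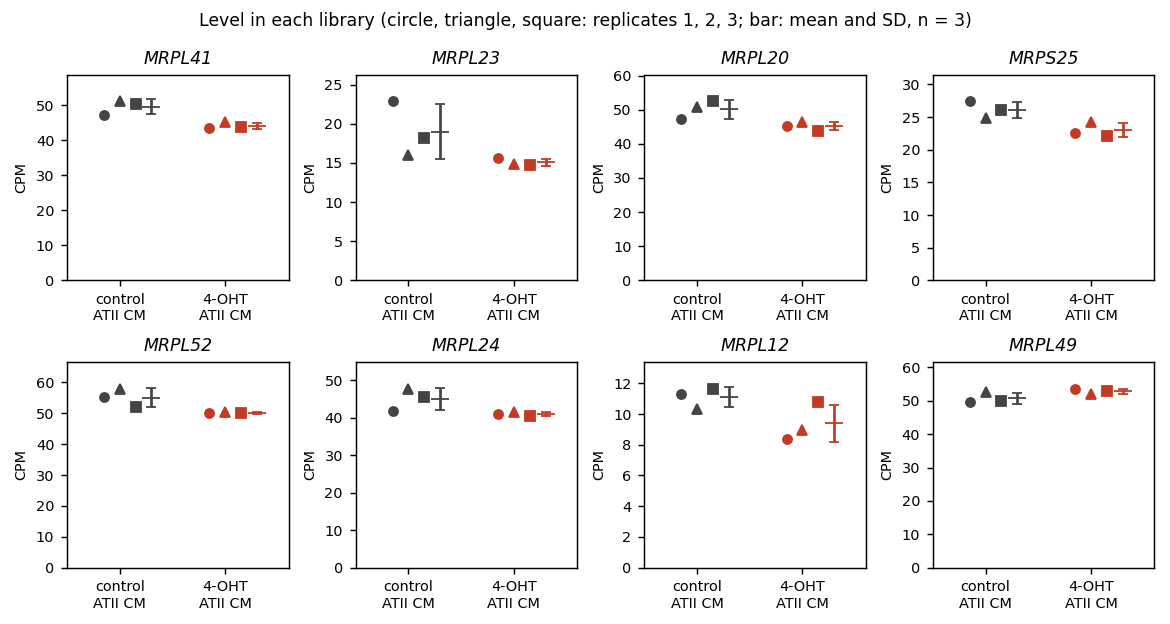
CPM of 8 members in each library, with replicates 1, 2 and 3 as circle, triangle and square and the mean and SD of 3 libraries beside them (axes start at 0). *MRPL41*, *MRPL23*, *MRPL20*, *MRPS25*, *MRPL52* and *MRPL24* are lower in every 4-OHT CM library than in any control library, *MRPL12* overlaps, and *MRPL49* is the member with the smallest p among those that were higher.

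No member rose by any of edgeR, DESeq2 and limma-voom. *MRPL49*, mitochondria-specific and next to *FAU*, was at 49.6, 52.6 and 49.9 CPM in control CM and 53.6, 52.1 and 52.8 CPM in 4-OHT CM (log2 fold change 0.06, SE 0.041, adjusted p = 0.501 by edgeR). On the opposite strand it shares 9.16% of its exon bases with *FAU* (28458 counts in all) and 11.6% with *SYVN1* (7066). *MRPL44*, related to ribonuclease III, was at 28.0, 31.1 and 31.2 CPM and at 31.6, 31.3 and 32.4 CPM. It was the only member with every 4-OHT CM library above every control library, against 11.7% of all genes, at a log2 fold change of 0.08 (adjusted p = 0.526 by edgeR). *MRPL9* (0.07), *MRPL22* (0.06), *MRPS2* (0.05), *MRPL11* (0.03) and *MRPS36* (0.05) followed by p, with *MRPS24* among them at 0.28 but with an SE of 0.25. In the other direction the groups did not overlap for 15 members (19.5%), lower in 4-OHT CM, against 10.4% of all genes. With 1 library left out, fewer libraries had to separate, and these values were 19 to 23 of 77 members and 14.6% to 18.1% of all genes. They were 19 members and 18.1% of all genes without replicate 2 of control CM, and 23 members and 15.9% without its replicate 1.

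*MRPL58*, a peptidyl-tRNA hydrolase that rescues stalled ribosomes, was at -0.10 (adjusted p = 0.511 by edgeR). *MRPS12*, of the decoding centre, was at -0.11 (0.452), with 16.3% of its exon bases shared with *SARS2* on the opposite strand. *MRPS18A* and *MRPS30*, the large-subunit proteins with small-subunit names, were at -0.10 (adjusted p = 0.684) and -0.05 (0.709), and *MRPS18C*, the paralogue with the bacterial place, was at 0.0049 (0.990), a sign that other settings turn. *MRPL51*, the highest in level, was at -0.04 (100.03, 102.6 and 100.1 CPM against 97.0, 101.2 and 95.8 CPM).

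In each part of the ribosome most members were lower. Of the 30 large-subunit members with bacterial homologues, 23 were lower (median log2 fold change -0.05), as were 16 of 21 mitochondria-specific large-subunit members (-0.05), 12 of 16 small-subunit members with bacterial homologues (-0.04) and 7 of 9 mitochondria-specific small-subunit members (-0.06). edgeR called 0, 1, 0 and 0 of them. At an unadjusted p of 0.05, 5, 2, 0 and 2 were lower and none was higher. Over all genes these shares were 5.72% called, and 8.61% lower and 8.72% higher at an unadjusted p of 0.05. DESeq2 called 1, *MRPL23*, in the first. The 67 members with less than 10% of exon bases shared on the same strand had a median of -0.04, with 52 lower.

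By promoter, the 29 members with an ETS core had a median log2 fold change of -0.06 and 25 lower (86.2%), and the 39 without one -0.03 and 26 lower (66.7%). Over all tested genes with a promoter window, the median was -0.0039 for the 2039 with an ETS core and 0.00073 for the 9091 without, and 51.6% of those with an ETS core were lower. With and without an NRF1 core the members stood at -0.04 and -0.04 (8 and 60 members, 75% and 75% lower). With and without a YY1 core they stood at -0.03 and -0.04 (23 and 45, 78.3% and 73.3% lower). Over all tested genes with a window, the medians were -0.012 with an NRF1 core and 0.0014 without, and -0.016 with a YY1 core and 0.0016 without. Of these genes, 55.2% with an NRF1 core and 56.7% with a YY1 core were lower. The differences between members with and without a core were not tested.

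Library by library, the summed level of the members was 2492, 2600 and 2519 CPM in control CM (mean 2537 ± 56.5, SD, n = 3) and 2451, 2463 and 2437 CPM in 4-OHT CM (2450 ± 12.8), a sum 3.42% lower. Replicate 2 of control CM was highest, and no 4-OHT CM library reached the lowest control library. The median deviation of the members from their mean of 6 libraries was -0.0086, 0.05 and 0.0096 (log2) in control CM and -0.02 in each library in 4-OHT CM. Of the 77 members, 34 had their highest value in replicate 2 of control CM, the library with the fewest counts. Without it the median log2 fold change was -0.03, with 52 members lower and 25 higher, and over the 6 fits that leave out 1 library it ranged from -0.06 to -0.03. The part of that library's depth in these values was not tested.

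**Figure D4:**
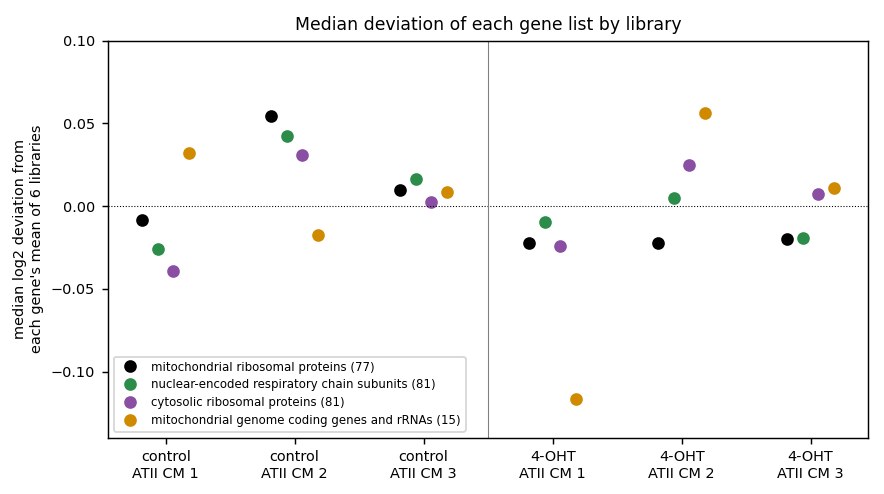
Median log2 deviation of each gene list from its genes' means over the 6 libraries, by library. The mitochondrial ribosomal proteins (black) lie at -0.02 in all 3 libraries in 4-OHT CM and are highest, at 0.05, in replicate 2 of control CM, where the nuclear-encoded respiratory chain subunits and the cytosolic ribosomal proteins are highest too.

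Other genes of mitochondrial translation were read from lists. All 5 mitoribosome proteins named otherwise were measured, 4 of them lower (median log2 fold change -0.07), and none was called by edgeR or DESeq2. The smallest p values were those of *AURKAIP1* (-0.10, adjusted p = 0.222 by edgeR) and *CHCHD1* (-0.13, 0.312). Of 16 translation factors 7 were higher and 9 lower (median -0.0061), with *SLIRP*, which stabilises mitochondrial mRNAs, at -0.13 (0.204) and the elongation factor *GFM1* at -0.11 (0.205). Of 23 assembly and rRNA modification factors 10 were higher and 13 lower (median -0.03), led by the GTPase *MTG1* at -0.28 (0.291) and by *MRM1* at -1.54 (0.383), which had 18 counts in all. No gene of these 2 lists was called by edgeR or DESeq2. At an unadjusted p of 0.05, edgeR gave 1 lower in the first list, 1 higher and 3 lower among the translation factors, and none among the assembly factors, against 8.61% of all genes lower and 8.72% higher.

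Among 16 mitochondrial aminoacyl-tRNA synthetases tested, 6 were higher and 10 lower (median -0.03), and 1 was called, against 5.72% of all genes. *PARS2*, which charges the mitochondrial tRNA for proline, rose from 4.45, 4.59 and 4.32 CPM to 6.30, 6.30 and 5.48 CPM. Every 4-OHT CM library was above every control library, with a log2 fold change of 0.43 (SE 0.12, adjusted p = 0.0419 by edgeR). *CARS2*, for cysteine, was at -0.15 (0.160). DESeq2 called no synthetase.

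Of 15 regulators of the mitochondrial genome and of biogenesis, 6 were higher and 9 lower (median -0.05), and 2 fell, against 2.76% of all genes called lower. *PPRC1*, a coactivator of the PGC-1 family, fell from 57.0 ± 0.655 to 50.8 ± 1.45 CPM (SD, n = 3), a log2 fold change of -0.17 (adjusted p = 0.0211 by edgeR). *MYC*, a growth regulator that activates many ribosome and mitochondrial genes, fell from 37.1 ± 0.737 to 32.8 ± 0.601 CPM, or -0.18 (0.0379). The groups of both genes did not overlap. *GABPA*, the ETS factor subunit of GABP, was at 0.07 (adjusted p = 0.578), *NRF1* at 0.04 (0.884), *TFAM*, which packs and transcribes mitochondrial DNA, at -0.06 (0.656) and *PPARGC1A* at 0.30 (0.680) from below 1 CPM. DESeq2 called 0 of the 15.

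Of the 15 genes of the mitochondrial genome, 1 was called by edgeR, against 5.72% of all genes. *MT-RNR2*, the large rRNA, rose from 1911 ± 45.2 to 2086 ± 89.0 CPM (SD, n = 3; log2 fold change 0.13, adjusted p = 0.0248 by edgeR), and *MT-RNR1*, the small rRNA, was at 0.17 (0.0582). The libraries were made from polyadenylated RNA. *MT-ND1*, a mitochondrially translated subunit of complex I, was at -0.16 (0.0547). Its levels were 589, 595 and 615 CPM in control CM and 488, 567 and 557 CPM in 4-OHT CM, lowest in replicate 1. Of these genes, 6 were higher and 9 lower (median -0.04). Replicate 1 of 4-OHT CM stood apart, with the lowest value of 10 of the 15 genes and a median log2 deviation of -0.12, while replicates 2 and 3 of 4-OHT CM were at 0.06 and 0.01 and the control libraries at 0.03, -0.02 and 0.0084. Without replicate 1 of 4-OHT CM, 10 of the genes were higher and 5 lower, with a median log2 fold change of 0.03. *MT-RNR2* was not called without replicate 3 of control CM (adjusted p = 0.0812 by edgeR) or without replicate 2 or 3 of 4-OHT CM (0.141 and 0.0706), nor with the replicate block and the GC and length offset together (0.0706). DESeq2 called 2 higher and 1 lower, against 2.55% and 2.45% of all genes, and limma-voom also called 2 higher and 1 lower. With edgeR these counts were 3 and 0 without replicate 1 of 4-OHT CM and 0 and 2 without its replicate 2. They were 0 and 0 without replicate 3 of control CM, and 3 and 2 without a count filter.

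For comparison, the 81 nuclear-encoded respiratory chain subunits tested had 53 lower and 28 higher with a median log2 fold change of -0.03, and none was called by edgeR or DESeq2 (at an unadjusted p of 0.05, edgeR gave 6 lower and 4 higher). *ATP5MK* was at -0.13 (adjusted p = 0.111) and *NDUFS8* at -0.11 (0.131). The 81 cytosolic ribosomal proteins were even, with 42 higher and 39 lower and a median of 0.0011, and 2 fell: *RPL22L1*, at -0.34 (adjusted p = 0.000218 by edgeR), and *RPS2*, at -0.10 (0.0453). At an unadjusted p of 0.05, edgeR gave 7 higher and 4 lower in this list. Over all genes 2.76% were called lower, and 8.72% were higher and 8.61% lower at an unadjusted p of 0.05. The difference between these lists and the mitochondrial ribosomal proteins was not tested, since genes are not replicates.

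**Figure D5:**
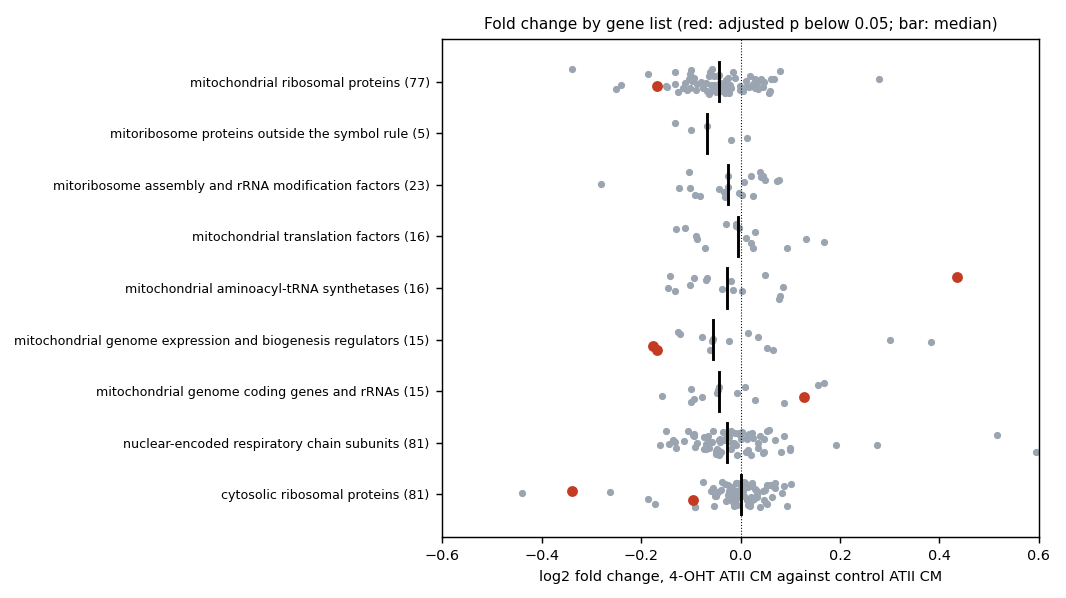
Log2 fold change of each gene in 4-OHT CM against control CM by list, with the median as a bar and genes with an adjusted p below 0.05 in red (edgeR). The axis ends at 0.6 in both directions and leaves out 4 genes. The median of the mitochondrial ribosomal proteins is -0.04, that of the cytosolic ribosomal proteins 0.0011.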

How the data were processed

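RNA-Seq of 6 MRC5 libraries was analysed. The authors trimmed reads with Trim Galore, aligned them to GRCh38 with HISAT2 2.1.0 and counted them per gene with featureCounts 1.6.5. The deposited table holds these counts without scaling. The annotation release, strand setting and treatment of multi-mapping reads are not given in the sources used here. Symbols came from GENCODE 44. Libraries were grouped by their titles. Genes with at least 10 counts in all entered edgeR 4.0.16 in R 4.3.3 (TMM factors, quasi-likelihood test, no covariate besides group, Benjamini-Hochberg threshold 0.05), with limma 3.58.1 and DESeq2 1.42.0 as alternatives. CPM use TMM-scaled totals. On simulated counts (18664 genes, 200 of them changed) edgeR called 95 of 96 genes changed by a log2 fold change of 0.8, 81 of 104 changed by 0.4, and 16 unchanged genes. Smaller changes, the size of most members' differences, were not simulated. Overlaps with other genes were counted on merged exons, and copies on alternate contigs were sought with minimap2 2.31.

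Members and lists were chosen with earlier results of these data known. Genes were named by rule: members called, the 8 higher and 8 lower with the smallest p, the 5 highest and 5 lowest in level, those under the count minimum, those with misleading names or known roles, and in other lists the genes called, the 2 with the smallest p and 6 regulators. Others are named where a count or a plot singles them out, after their values were seen. The members had a median of 3907 counts over the 6 libraries, a depth at which counting error is part of the spread between libraries. Intervals cover the fit's error only.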

Additional observations from a re-analysis of the deposited data

How the results depend on the processing

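Of 14 alternatives, 8 called *MRPL41*. Without a count filter 2 members were called in place of 1 (*MRPL41* and *MRPL23*), and leaving out 1 library at a time gave 0 to 2 (2 without replicate 1 and 2 without replicate 2 of control CM, 0 without any other library). DESeq2 called 1, *MRPL23*, so that the single call names different genes in different tools. The 3 calls in the lists of mitochondrial translation (*PARS2*, *PPRC1* and *MYC*, the mitochondrial genome not included) became 0 with DESeq2 and 1 with the replicate block. Without 1 library there were 0 to 3 (3 without replicate 2 of control CM, 1 without its replicate 1 or replicate 3 of 4-OHT CM, 0 otherwise). All genes called, 1090 in the reported fit, ran from 954 to 1601 over the alternatives that keep every library and from 533 to 1530 without 1 library (663 without replicate 3 of control CM, 533 and 615 without replicates 2 and 3 of 4-OHT CM). The members' median log2 fold change was negative throughout, at -0.06 to -0.03 without 1 library.

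Replicate numbers did not pair the libraries: deviations of libraries with the same number correlated at -0.014, -0.104 and -0.093 over 9691 genes. With the replicate block 1 member was called, as without it. Signs were followed over the settings for 28 members, and among these some uncalled fold changes, mostly near 0, changed sign. *MRPS18C* was at -0.022 with the GC and length offset and at -0.017 with that offset and the block. Without 1 library *MRPS18C* ranged from -0.077 to 0.075, *MRPL45* from -0.15 to 0.32 and *MRPS2* from -0.020 to 0.095. *MRPS18A*, at -0.10 in the reported fit, ranged from -0.19 to 0.012. The cause was not tested. With longest transcripts as lengths the median level was 15.9 CPM per kb. Members with few counts, such as *MRPS24* with 149, have intervals too wide to compare.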
